A study of Homo sapiens with 6 samples.

Results

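The collagen genes are the 44 protein-coding genes of the deposited count table whose symbol is COL, a type number, A and a chain number, out of 58735 genes in the table. They were followed in 6 RNA sequencing libraries of A549, a human lung adenocarcinoma cell line of epithelial origin. A group of 3 libraries is titled Vector, with the genotype and treatment given as WT, and the other 3 are titled OE_GPX3, with both given as OE for overexpression of GPX3, a secreted glutathione peroxidase. The empty vector, the promoter that drives GPX3, the time after its introduction and whether the cells are 1 clone or a pool are not stated by the labels. Of the 44 collagen genes, 22 had enough counts to be tested, 18 had counts too low for the test and 4 had 0 counts in all 6 libraries. Symbols, positions and gene lengths are those of the deposited table on hg38, where 44 of 44 positions are the same in GENCODE release 29.

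Collagens are proteins of the extracellular matrix in which 3 chains wind around each other as a triple helix. Only glycine is small enough for the centre of that helix, so each helical chain repeats a triplet of residues that opens with glycine. Fibril-forming collagens, such as types I, III and V, have 1 long unbroken helix and assemble into banded fibrils. The network-forming type IV collagens of basement membranes have a helix with many short breaks, which make it flexible, and epithelial cells rest on the sheets they build. Other classes link fibrils to each other or to the basement membrane, form beaded filaments, or stay anchored in the plasma membrane.

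The glycine repeat could be read directly from the coding sequences in GENCODE release 29, in which a glycine codon is any codon that starts with GG. Of the 44 collagen genes, 44 had at least 10 successive triplets of codons that each opened with glycine, against 51 of 19460 other protein-coding genes (0.262%). Among those others were MARCO, a scavenger receptor with 81 triplets, SFTPD, which encodes surfactant protein D, with 59, and COLQ, the collagen-like tail of acetylcholinesterase, with 58. Glycine made up a median 24.3% of codons in the collagen genes and 6.37% in the other genes. Stretches of 33 codons from 3 genes, read 5′ to 3′ along the coding strand with glycine codons in capitals, show an unbroken fibril-forming helix in COL5A2, a break in the type IV chain COL4A6 and a break in the transmembrane chain COL17A1. These are the fibril-forming and the basement membrane gene with the highest levels in A549, and the collagen gene with the lowest log2 fold change.
COL5A2: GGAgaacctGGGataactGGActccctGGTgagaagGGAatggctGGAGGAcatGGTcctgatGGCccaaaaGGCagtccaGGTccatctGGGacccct
COL4A6: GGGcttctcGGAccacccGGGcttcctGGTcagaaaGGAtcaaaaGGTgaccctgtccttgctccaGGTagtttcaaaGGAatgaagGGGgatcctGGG
COL17A1: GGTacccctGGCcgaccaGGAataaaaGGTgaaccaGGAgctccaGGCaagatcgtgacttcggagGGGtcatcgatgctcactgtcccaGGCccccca

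The COL5A2 stretch, coding positions 2158 to 2256, lies inside a run of 339 triplets and holds 12 glycine codons. In the COL4A6 stretch, positions 424 to 522, the longest run of that gene, 38 triplets, ends after the sixth capitalised codon. The COL17A1 stretch, positions 2371 to 2469, crosses the end of a run of 56 triplets and holds 8 glycine codons. The longest run set the fibril-forming genes apart from the other classes. It spanned 216 to 343 triplets in the 11 fibril-forming genes and 38 to 66 in the 6 type IV genes. In the beaded filament genes of type VI it spanned 37 to 87, and in the fibril-associated genes 32 to 113. The hexagonal network genes had 60 to 61 and the transmembrane genes 43 to 56. COL7A1 had 75, and COL18A1 and COL15A1 had 30 each. COL26A1 and COL28A1, grouped in none of the classes, had 23 and 28. The 22 tested genes had a median longest run of 59 triplets and the 22 others 60.5, so genes with long and short repeats occurred on both sides of the count filter.

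**Figure D1:**
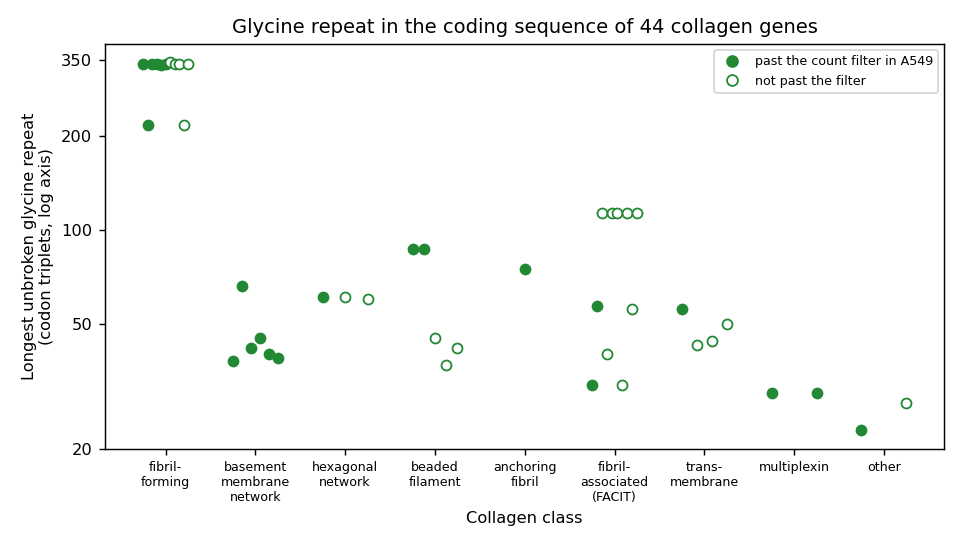
Longest unbroken glycine repeat in the coding sequence of each of the 44 collagen genes (vertical axis, codon triplets, log axis), grouped by class; filled points passed the count filter in A549 and open points did not. Fibril-forming genes lie at 216 to 343 triplets and type IV genes at 38 to 66.

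The 6 type IV genes lie head to head in 3 pairs, and each pair is transcribed outward from a short shared stretch. In the RefSeq promoter table (GRCh38.p14), the start sites of COL4A1 and COL4A2 on chromosome 13 were 126 bases apart. Those of COL4A4 and COL4A3 on chromosome 2 were 418 apart and those of COL4A6 and COL4A5 on the X chromosome 379. COL4A6 has another start, with window chrX:108438373-108438672, which lies farther from COL4A5, and the distance is to the nearer start. Sequence is shown for the pairs of chromosome 2 and the X chromosome, on the plus strand, with motif matches in capitals. For COL4A4 and COL4A3 it is the stretch between the annotated spans of the genes, and for COL4A6 and COL4A5 the 250 bases before the COL4A5 start, which do not reach as far as COL4A6. The GC box was searched as GGGCGG on both strands. The letters of the box bound by the factor NF-Y, CCAAT, were searched in the same way, and so was the TATA box, as the letters TATAAA.
COL4A4 and COL4A3, chr2:227164454-227164564: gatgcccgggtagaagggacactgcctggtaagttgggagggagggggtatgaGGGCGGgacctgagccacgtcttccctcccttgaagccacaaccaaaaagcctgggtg
COL4A6 and COL4A5, chrX:108439588-108439837: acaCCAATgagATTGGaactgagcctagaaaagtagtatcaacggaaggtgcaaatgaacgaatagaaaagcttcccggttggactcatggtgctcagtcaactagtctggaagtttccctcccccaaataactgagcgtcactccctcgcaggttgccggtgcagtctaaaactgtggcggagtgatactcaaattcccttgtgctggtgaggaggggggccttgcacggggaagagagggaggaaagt

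The first stretch holds 1 GC box, a motif present in 45.0% of all RefSeq promoter windows, which run from 250 bases before to 50 after a start. The second holds 2 CCAAT matches, 1 on each strand, a motif found in 34.6% of all windows. Both stretches are shorter than a window, so the shares do not apply to them directly. The full COL4A3 window held 2 GC boxes, the COL4A4 window held none, and the full COL4A5 window held 2 CCAAT matches. A match describes letters and is not evidence of binding. The windows of the 3 pairs also differed in base composition: G and C made up 77.7% of the COL4A2 window, 67.7% of the COL4A3 window and 49.3% of the COL4A5 window.

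Total counts ranged from 15831693 to 18751815 per library, and protein-coding genes took 97.2% to 97.6% of them, whereas the library protocol in the labels describes small RNA. Collagen genes took 0.119% to 0.160% of counts, or 20657 to 28373 counts per library. In OE_GPX3 libraries GPX3 itself had 17470 to 23372 counts, against 638 to 658 in Vector, a 33.8-fold difference in the direction of the labels. Levels in CPM are counts per 1e6 counts of the tested genes in a library, scaled by TMM normalisation factors. Of the epithelial and A549 markers 9 of 9 passed the count filter. Their summed level was 33028 to 35931 CPM in Vector and 36500 to 46143 in OE_GPX3. Of 10 markers of fibroblasts and stroma, the main collagen producers of tissues, only ACTA2 and FBLN1 passed; the list summed to 49.7 to 52.7 CPM in Vector and 48.2 to 58.2 in OE_GPX3, and POSTN was at 0 in all libraries. Of the endothelial markers 0 of 6 passed, and of the leukocyte markers 1 of 6. Nothing in the labels ties replicates to separate cultures. The spread that the p-values rest on is that of these libraries and may be technical. In bulk RNA, fewer cells expressing a gene and less RNA per cell cannot be told apart.

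The collagen RNA of A549 came mostly from basement membrane type IV chains, the type V chain COL5A2, and the basement membrane associated types XVIII and VII. Levels are the authors' FPKM, which divide counts by gene length and by a library constant. Of the 44 genes 16 had a mean of at least 1 FPKM, and the 7 highest, COL4A6, COL5A2, COL18A1, COL7A1, COL4A5, COL4A2 and COL12A1, held 81.7% of all collagen FPKM. Type IV chains took 38.2% ± 1.06 (SD, n = 3) of summed collagen FPKM in Vector libraries and 38.2% ± 0.354 (SD, n = 3) in OE_GPX3, the largest share of any class in both. All 6 type IV genes were tested, against 6 of 11 fibril-forming, 2 of 5 type VI, 2 of 10 fibril-associated, 1 of 3 hexagonal network and 1 of 4 transmembrane genes. COL4A6, the highest, ranked 1854th among 19951 protein-coding genes by FPKM, so collagens were not among the most abundant messages.

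**Figure D2:**
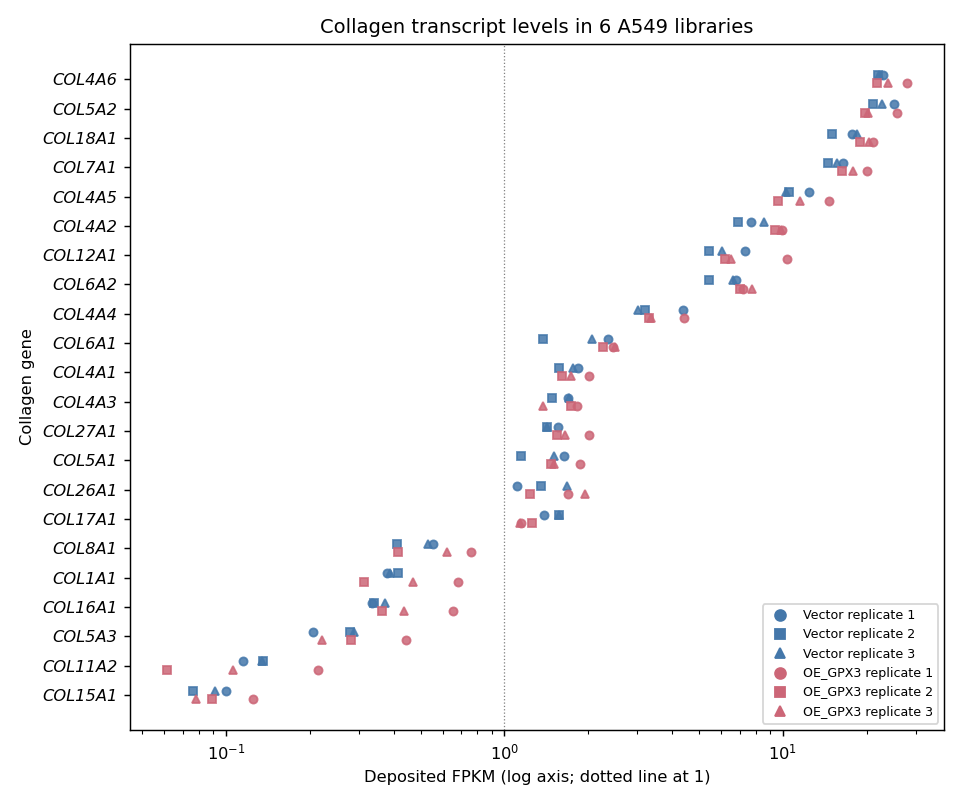
FPKM of the tested collagen genes in each of the 6 libraries (log axis), ordered by mean level, with Vector and OE_GPX3 libraries as separate point colours. COL4A6 and COL5A2 lie near 20 to 28 FPKM and the order of most neighbours overlaps across libraries.

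Within the order, most neighbours were close: over the 6 libraries their ranges overlapped, except between COL6A2 and COL4A4, COL4A4 and COL6A1, and COL17A1 and COL8A1. Compared within each library, 5 further pairs kept their order in 6 of 6: COL18A1 above COL7A1, COL7A1 above COL4A5, COL4A5 above COL4A2, COL16A1 above COL5A3 and COL5A3 above COL11A2. The order also rests on the deposited gene length, which covers all exons of a gene. For COL4A2 it is 19293 bases, against 6494 for the transcript with the longest coding sequence, and for COL4A1 14738 against 6616. With transcript lengths, an order worked out after the values were seen, COL4A2 moved from the sixth to the second place, and COL4A1 from the eleventh to the ninth.

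Among the type IV chains, COL4A6 (ENSG00000197565, chrX:108155607-108439497, minus strand), the alpha 6 chain, stood at 22.9, 21.98 and 22.1 FPKM in Vector and 27.98, 21.7 and 23.8 in OE_GPX3. Its neighbour COL4A5 (ENSG00000188153, chrX:108439844-108697545, plus strand), the alpha 5 chain with which it pairs in some epithelial basement membranes, stood at 12.4, 10.5 and 10.3 in Vector and 14.6, 9.62 and 11.5 in OE_GPX3. In both genes OE_GPX3 held the highest of the 6 libraries, replicate 1, and the lowest, replicate 2, so the groups overlapped. The log2 fold changes were 0.12 ± 0.11 for COL4A6 and 0.10 ± 0.12 for COL4A5 (± SE), with edgeR adjusted p = 0.612 and 0.743.

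COL4A2 (ENSG00000134871, chr13:110305812-110513209, plus strand) encodes the alpha 2 chain of the type IV network found in nearly all basement membranes. It stood at 7.70, 6.87 and 8.57 FPKM in Vector and 9.89, 9.40 and 9.80 in OE_GPX3, so that all OE_GPX3 libraries were above all Vector libraries. The log2 fold change was 0.31 (SE 0.10, 95% interval 0.10 to 0.53), the lowest p among the collagen genes, with edgeR adjusted p = 0.169. COL4A1 (ENSG00000187498, chr13:110148963-110307233, minus strand), the alpha 1 chain that joins alpha 2 in the same helix, stood at 1.83, 1.57 and 1.76 in Vector and 2.01, 1.61 and 1.74 in OE_GPX3. Its groups overlapped, with a log2 fold change of 0.04 ± 0.13 (SE) and edgeR adjusted p = 0.900. The annotated spans of COL4A1 and COL4A2 overlap by 1422 bases on opposite strands, and no source says whether the authors' counting used strand, so reads in that overlap cannot be assigned with certainty.

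COL4A4 (ENSG00000081052, chr2:227002711-227164453, minus strand) and COL4A3 (ENSG00000169031, chr2:227164565-227314792, plus strand) encode the alpha 4 and alpha 3 chains, which join alpha 5 in the basement membranes of the kidney glomerulus and the lung alveolus. COL4A4 stood at 4.39, 3.21 and 3.02 FPKM in Vector and 4.42, 3.30 and 3.36 in OE_GPX3. COL4A3 stood at 1.68, 1.49 and 1.71 in Vector and 1.82, 1.73 and 1.38 in OE_GPX3. Replicate 1 was the highest COL4A4 library of each group, and the groups overlapped in both genes. Fold changes were 0.05 ± 0.14 and 0.00 ± 0.15 on the log2 scale (SE), with edgeR adjusted p = 0.897 and 0.999. The antisense gene AC097662.1, which overlaps COL4A3, had 1 to 13 counts per library.

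The fibril-forming genes were carried by COL5A2 (ENSG00000204262, chr2:189031896-189225312, minus strand), the alpha 2 chain of type V collagen, which limits the diameter of type I fibrils. It stood at 24.96, 21.0 and 22.7 FPKM in Vector and 25.7, 19.7 and 20.3 in OE_GPX3, with overlapping groups and a log2 fold change of -0.08 ± 0.11 (SE, edgeR adjusted p = 0.762). Its partner chain COL5A1 (ENSG00000130635, chr9:134641774-134844843) was far lower, at 1.63, 1.15 and 1.51 in Vector and 1.86, 1.47 and 1.503 in OE_GPX3. COL27A1 (ENSG00000196739, chr9:114155560-114312511), a fibril-forming chain with a shorter helix, stood at 1.55, 1.42 and 1.42 in Vector and 2.005, 1.54 and 1.65 in OE_GPX3. Neither passed the test, with log2 fold changes of 0.16 and 0.23 and edgeR adjusted p = 0.626 and 0.429. Below 1 FPKM were COL1A1, COL5A3 and COL11A2. COL11A2 stood at 0.115, 0.136 and 0.135 in Vector and 0.215, 0.0614 and 0.106 in OE_GPX3, where the highest and the lowest library both belong to OE_GPX3, with a log2 fold change of -0.01 (95% interval -0.90 to 0.88). The fibril-forming share of summed collagen FPKM was 21.5%, 21.1% and 20.8% in Vector and 19.6%, 18.7% and 18.01% in OE_GPX3, without overlap. That share depends on every other class as well as on COL5A2, and no test was made of it.

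COL1A1, the alpha 1 chain of type I collagen, stood at 0.379, 0.414 and 0.390 FPKM in Vector and 0.680, 0.313 and 0.471 in OE_GPX3 (log2 fold change 0.30, edgeR adjusted p = 0.556). COL1A2, whose chain joins alpha 1 in ordinary type I collagen, had 0 counts in 5 libraries and 7 in OE_GPX3 replicate 3. COL3A1, the type III chain of soft tissue, had 1, 1 and 2 counts in Vector and 0, 3 and 10 in OE_GPX3. COL11A1 had its only 3 counts in the same OE_GPX3 replicate 3. The abundant fibrillar collagens of stroma were thus at or near 0 counts, except COL1A1.

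Several tested genes encode collagens that sit beside a basement membrane. COL18A1 (ENSG00000182871, chr21:45405137-45513720), a proteoglycan of basement membranes and the source of endostatin, stood at 17.7, 15.1 and 18.4 FPKM in Vector and 21.1, 18.8 and 20.3 in OE_GPX3, without overlap. Its log2 fold change was 0.22 (SE 0.11, 95% interval 0.01 to 0.44), with edgeR adjusted p = 0.321. SLC19A1, a folate transporter gene on the opposite strand, shares 20149 bases of span with COL18A1 and had 698 to 863 counts per library. The log2 fold change of SLC19A1 was 0.27 (edgeR adjusted p = 0.281). Strand use in the counting is not known, so reads in that overlap cannot be assigned with certainty. COL7A1 (ENSG00000114270, chr3:48564073-48595267), which builds the anchoring fibrils that tie epithelium to the tissue below, stood at 16.4, 14.5 and 15.6 in Vector and 20.0, 16.3 and 17.8 in OE_GPX3. Only the lowest COL7A1 library of OE_GPX3 fell inside the Vector range, and the log2 fold change was 0.20 ± 0.10 (SE, edgeR adjusted p = 0.370). COL15A1, the other gene of the COL18A1 class, was the lowest gene tested, at 0.1001, 0.0764 and 0.0913 in Vector and 0.125, 0.0889 and 0.0784 in OE_GPX3.

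COL17A1 (ENSG00000065618, chr10:104031286-104085957), a transmembrane collagen of hemidesmosomes, the junctions that fix epithelial cells to the basement membrane, was the one tested gene below Vector in every library. It stood at 1.38, 1.57 and 1.57 FPKM in Vector and 1.15, 1.26 and 1.13 in OE_GPX3, and the groups did not overlap. The log2 fold change was -0.37 (SE 0.16, 95% interval -0.69 to -0.04), with edgeR adjusted p = 0.291. The other 3 transmembrane genes had few or no counts.

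Type VI collagen forms beaded filaments near cell surfaces from chains encoded by COL6A1 and COL6A2 together with COL6A3. COL6A2 (ENSG00000142173, chr21:46098097-46132849) stood at 6.77, 5.43 and 6.59 FPKM in Vector and 7.20, 7.04 and 7.76 in OE_GPX3. COL6A1 (ENSG00000142156, chr21:45981737-46005050) stood at 2.36, 1.38 and 2.06 in Vector and 2.45, 2.26 and 2.49 in OE_GPX3. COL6A2 did not overlap between groups, while 1 Vector library of COL6A1 reached into the OE_GPX3 range. The log2 fold changes were 0.21 ± 0.12 and 0.30 ± 0.17 (SE), with edgeR adjusted p = 0.408 and 0.405. COL6A3 had 2, 11 and 6 counts in Vector and 4, 0 and 0 in OE_GPX3, too few to test, and COL6A5 and COL6A6 had none.

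COL12A1 (ENSG00000111799, chr6:75084326-75206051), a fibril-associated collagen with interrupted triple helices, stood at 7.30, 5.41 and 6.02 FPKM in Vector and 10.3, 6.22 and 6.52 in OE_GPX3. OE_GPX3 replicate 1 stood above the rest, and the log2 fold change was 0.29 ± 0.21 (SE, edgeR adjusted p = 0.548). COL16A1, of the same class, had the largest positive change of the tested genes, 0.46 (95% interval -0.01 to 0.93, edgeR adjusted p = 0.353). Vector libraries stood at 0.335, 0.340 and 0.374 FPKM and OE_GPX3 libraries at 0.654, 0.364 and 0.436, with replicate 1 again the highest. COL26A1 (ENSG00000160963, chr7:101362820-101559024), a short collagen outside the main classes, stood at 1.11, 1.35 and 1.68 in Vector and 1.69, 1.24 and 1.94 in OE_GPX3, with overlapping groups. COL8A1, a network chain of endothelial and other sheets, stood at 0.554, 0.411 and 0.530 in Vector and 0.757, 0.415 and 0.623 in OE_GPX3. COL5A3, a type V chain, stood at 0.206, 0.279 and 0.288 in Vector and 0.445, 0.280 and 0.222 in OE_GPX3. In both genes OE_GPX3 replicate 1 was the highest library and the groups overlapped.

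The 18 untested genes with counts had at most 22 counts in any library, the highest being COL22A1 in Vector replicate 2. They were COL1A2, COL2A1, COL3A1, COL11A1 and COL24A1 of the fibril-forming class, COL8A2 and COL10A1 of the hexagonal network, COL6A3, the fibril-associated COL9A2, COL9A3, COL14A1, COL19A1, COL20A1, COL21A1 and COL22A1, the transmembrane COL13A1 and COL23A1, and COL28A1. Their mean level did not exceed 0.0719 FPKM, just below the 0.0934 FPKM of COL15A1, the lowest gene that was tested. COL9A1, COL25A1, COL6A5 and COL6A6 had 0 of 103723237 counts, which allows a level of up to 0.0289 CPM. COL2A1, COL9A1, COL9A2, COL9A3, COL10A1 and COL11A1, which cartilage is known for, are among these genes with few or no counts. The other type XI gene, COL11A2, passed the filter with 91 counts over the 6 libraries, so not every cartilage collagen is among them. Of 4 cartilage markers, SOX9 (260 to 441 counts per library) and MATN3 (103 to 178 counts) passed the count filter, ACAN had at most 2 counts and COMP had 0.

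Chains of 1 helix are joined in fixed proportions. The FPKM ratio of partner chains was taken in each library for 5 pairs, and groups were compared by permutation (exact, two-sided). With 3 libraries against 3 the lowest p that this can give is 0.1. COL4A1 over COL4A2 was 0.238, 0.228 and 0.205 in Vector and 0.203, 0.172 and 0.177 in OE_GPX3, without overlap. COL5A1 over COL5A2 was 0.0654, 0.0547 and 0.0665 in Vector and 0.0725, 0.0747 and 0.0742 in OE_GPX3, also without overlap. For each of these the exact permutation p was 0.1, adjusted to 0.25 over the 5 pairs. The ratio of COL4A3 to COL4A4 was 0.384, 0.464 and 0.566 in Vector and 0.411, 0.524 and 0.411 in OE_GPX3 (exact permutation p = 0.7, adjusted 0.8). For COL4A5 over COL4A6 it was 0.541, 0.477 and 0.465 against 0.523, 0.444 and 0.483 (exact permutation p = 0.8, adjusted 0.8), and for COL6A1 over COL6A2 0.348, 0.254 and 0.312 against 0.340, 0.321 and 0.321 (exact permutation p = 0.5, adjusted 0.8). The alpha 1 chain of type IV was the lower of its pair in every library, and with transcript lengths its ratio to alpha 2 was lower still, 0.129 to 0.178.

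**Figure D3:**
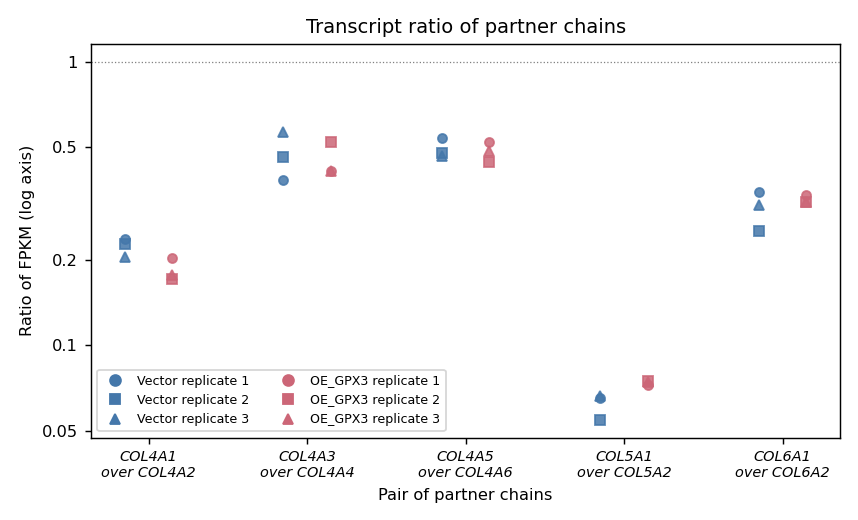
FPKM ratio of 5 pairs of partner chains in each library (log axis), with Vector and OE_GPX3 libraries as separate points. COL4A1 over COL4A2 and COL5A1 over COL5A2 do not overlap between groups; the other 3 pairs do.

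Set against Vector, none of the 22 tested collagen genes was called higher or lower in OE_GPX3 by edgeR's quasi-likelihood test at an adjusted p under 0.05, where 0.263% of 14458 genes were called. DESeq2 called 0 of the 14 collagen genes to which it gave an adjusted p, where 1.33% of its genes were called. It gave none to the other 8, which include COL17A1 and COL16A1. At an unadjusted p under 0.05 stood 3 of the 22 (13.6%), COL4A2, COL17A1 and COL18A1, against 14.6% of all genes. Groups did not overlap for 4 of the 22 (18.2%), COL4A2, COL6A2, COL17A1 and COL18A1, against 18.5% of all genes. Log2 fold changes were above 0 in 19 of 22 (86.4%), all but COL5A2, COL11A2 and COL17A1, against 47.4% of all genes, with a median of 0.21 against -0.02. Called genes and genes that did not overlap were therefore near the background shares, while the direction of the log2 fold changes was not. A member can pass the count filter through the group in which it is high, so these counts describe the tested genes and not all members.

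**Figure D4:**
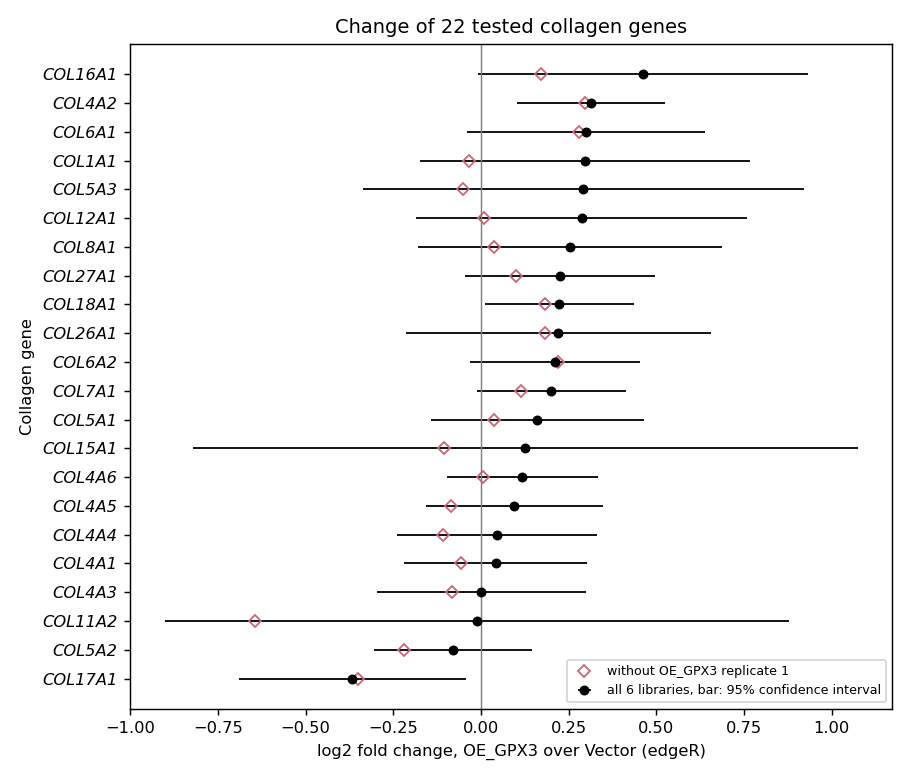
Log2 fold change of each tested collagen gene, OE_GPX3 over Vector, from edgeR's fit, with 95% confidence intervals as bars. The estimates lie above 0 for 19 of 22 genes, and the intervals of COL4A2, COL17A1 and COL18A1 leave out 0.

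The positive direction varied with 1 library. Relative to the mean of the 6 libraries, the median log2 deviation of the 22 genes was 0.04, -0.15 and -0.01 in Vector and 0.29, -0.11 and 0.01 in OE_GPX3. OE_GPX3 replicate 1 was the highest of the 6 libraries for 17 of the 22 genes, whereas it was the highest for 17.7% of all genes tested. Vector replicate 2 was the lowest for 9 of the 22. Without OE_GPX3 replicate 1, the median log2 fold change was 0.0072 and 12 of 22 genes were above 0. Without Vector replicate 2, it was 0.11 with 17 above 0.

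**Figure D5:**
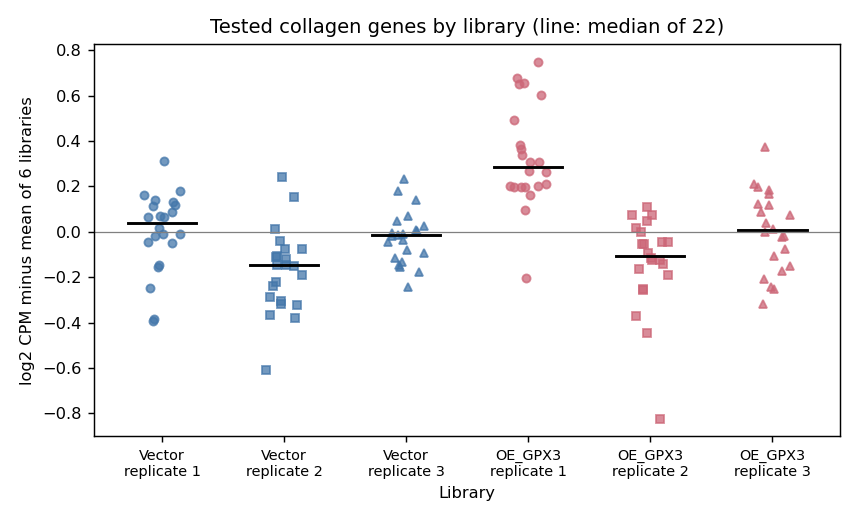
Log2 deviation of each tested collagen gene from its mean over the 6 libraries, by library, with the median marked. The median of OE_GPX3 replicate 1 is 0.29 and those of the other 5 libraries lie between -0.15 and 0.04.

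The tested collagen genes also differ from other genes in base composition and length. Their transcripts had a median G and C content of 57.3%, against 49.8% over all genes tested, and a median gene length of 9275.5 against 4747 bases. A correction was made for the trend of log2 deviation with G and C content in each library. With it the median log2 fold change of the 22 genes was 0.06, with 19 above 0, against 0.21 without it. COL18A1 was then at 0.03 in place of 0.22, COL6A2 at 0.03 in place of 0.21 and COL7A1 at 0.03 in place of 0.20. COL6A1 was at 0.14 in place of 0.30, COL4A2 at 0.26 in place of 0.31 and COL17A1 at -0.42 in place of -0.37. Other genes rose, among them COL12A1, at 0.36 in place of 0.29. COL4A5 was at 0.16 in place of 0.10 and COL8A1 at 0.31 in place of 0.25. With this correction 0 of the 22 were called. With a correction of the same kind for gene length, the median of the 22 genes was 0.23, with 20 above 0. Of the 22, 8 then stood at an unadjusted edgeR p under 0.05, against 2228 of 14458 genes. The lowest edgeR adjusted p was 0.0565, and 0 were called. The part of base composition or length in the result was not tested.

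The other genes of collagen production were taken from a list of 81 genes in 9 roles, of which 58 were tested. None was called higher and 1, MIA2, was called lower, against 0.166% of all genes called lower; 39 were above 0 and 19 below, with a median log2 fold change of 0.12. MIA2 (chr14:39230231-39388513), which acts with MIA3 where procollagen leaves the endoplasmic reticulum, stood at 3.65, 3.78 and 3.52 FPKM in Vector and 2.88, 2.50 and 2.23 in OE_GPX3. All OE_GPX3 libraries were below all Vector libraries, and the log2 fold change was -0.54 ± 0.12 (SE, 95% interval -0.79 to -0.29, edgeR adjusted p = 0.0402). The call was lost without Vector replicate 2 (log2 fold change -0.51, edgeR adjusted p = 0.596), Vector replicate 3 (-0.56, 0.0804), OE_GPX3 replicate 2 (-0.52, 0.107) or OE_GPX3 replicate 3 (-0.44, 0.253), and with the correction for G and C content (-0.35, 0.2999). An antisense gene inside MIA2, AL132639.2, had 0 to 10 counts per library. Of the 9 secretion genes tested, 3 were above 0 and 6 below, among them KLHL12, an adaptor of the ligase that enlarges transport carriers, at a log2 fold change of -0.35 (edgeR adjusted p = 0.172).

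Of the enzymes that modify the chains in the endoplasmic reticulum, 0 of 13 tested genes were called; 12 had a log2 fold change above 0, with a median of 0.19. Over all genes tested 47.4% were above 0, and no test was made of any role or of a difference between roles. PLOD1, a lysyl hydroxylase, stood at 35.6, 34.5 and 40.1 FPKM in Vector and 49.5, 45.7 and 47.4 in OE_GPX3, without overlap (log2 fold change 0.36, edgeR adjusted p = 0.118). P3H3, of the prolyl 3-hydroxylase family, had a log2 fold change of 0.42 (edgeR adjusted p = 0.160). Of the chaperones and factors of collagen folding, 5 of 6 were above 0, with a median log2 fold change of 0.25. PPIB, cyclophilin B, stood at 98.6, 94.7 and 111 FPKM in Vector and 121, 144 and 128 in OE_GPX3, also without overlap (log2 fold change 0.35, edgeR adjusted p = 0.125), and SERPINH1, the collagen chaperone HSP47, at 7.79, 8.17 and 9.88 in Vector and 9.33, 10.2 and 11.2 in OE_GPX3.

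Outside the cell, the genes that trim procollagen had 4 of 4 tested above 0, among them PCOLCE, an enhancer of the procollagen C-proteinase, at a log2 fold change of 0.52 (edgeR adjusted p = 0.169) and BMP1, that proteinase, at 0.28 (0.208). Crosslinking genes had 4 of 4 above 0. TGM2, a transglutaminase, stood at 161, 162 and 174 FPKM in Vector and 223, 212 and 210 in OE_GPX3, without overlap (log2 fold change 0.36, edgeR adjusted p = 0.118). Of the collagen receptors 3 of 7 were above 0, with DDR1, a receptor kinase, at a log2 fold change of 0.23 (edgeR adjusted p = 0.301) and ITGB1, the beta 1 integrin, at -0.20 (0.370). Of the collagenases and gelatinases 3 were tested, with a median log2 fold change of 0.27. MMP2 was at 0.27, MMP14 at 0.42 and CTSK at 0.0033 (edgeR adjusted p = 0.522, 0.553 and 0.998). The collagenases MMP1, MMP8 and MMP13 had too few counts to test. Of 10 genes of TGF-beta signalling 3 were above 0. TGFB1, the ligand, had a log2 fold change of 0.36 (edgeR adjusted p = 0.125) and its receptor TGFBR2 at -0.24 (0.312). DESeq2 called 5 of the 44 genes of this list that it gave an adjusted p, MIA2, PLOD1, PPIB, TGFB1 and TGM2, against 1.33% of all its genes. Without OE_GPX3 replicate 1, edgeR called 6 of the list, MIA2, PLOD1, PPIB, SEC23A, TGFBR2 and TGM2, and 657 of all genes. With all 6 libraries it called 1 of the list and 38 of all genes. The numbers tested in the smaller fit are not given here, so no share is compared.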

How the data were processed

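RNA was measured in 3 Vector and 3 OE_GPX3 libraries, grouped by title. The authors deposited whole-number counts per gene and FPKM values, on hg38 (submitters' processing notes). For aligner, counter and strand: not given in the sources used here. In each library the deposited FPKM are counts divided by gene length and by a constant, which lies -4.52% to 4.90% from the library total. Levels between genes are compared on FPKM.

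Counts were filtered with filterByExpr (minimum count 10, total 15; 14458 genes left), scaled by TMM and tested with edgeR 4.0.16 in R 4.3.3 (quasi-likelihood, robust, two-sided, Benjamini-Hochberg over all genes, threshold 0.05), with a biological coefficient of variation of 0.110. DESeq2 1.42.0, limma 3.58.1 on log2(FPKM + 1), other scalings, G and C or length trend offsets, a replicate block and leaving out each library were alternatives. On simulated counts 49 of 67 genes changed 1.5-fold were called (73.1%), and 67 of 67 changed 2-fold, with 16 false calls. Each gene was drawn separately, with no shift shared by the genes of a library beyond its size. How the calls fare where libraries hold such a shift was not tested. The largest estimated fold of a tested collagen gene was 1.38, for COL16A1, so smaller changes than those simulated are not covered. The changed genes were drawn only from those above a minimum mean CPM. COL26A1, COL1A1, COL16A1, COL5A3, COL11A2 and COL15A1 lay below that minimum, so these shares do not cover them.

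Members, classes and the pathway list were chosen with earlier results of these data known. Values per library are given for members of at least 1 FPKM and the 3 largest changes in each direction. Other values per library, with those of pathway genes that were not called, were chosen after they were seen. Pathway genes named for a role are not always those with the smallest p. CREB3L1 (log2 fold change 0.53) and FKBP10 (0.27) had a lower edgeR p than SERPINH1, and MRC2 (0.26) a lower one than DDR1 and ITGB1. Symbols for the promoter windows matched 32 of 44 members; protein sequences are not used here.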

Additional observations from a re-analysis of the deposited data

How the results depend on the processing

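Under 18 alternative settings, which tested 14 to 40 collagen genes, none was called in 17. The replicate block called 1, COL4A2 (log2 fold change 0.32, edgeR adjusted p = 0.0441). With G and C offsets added to that block, COL4A2 had an edgeR adjusted p of 0.172. Its adjusted p spanned 0.0441 to 0.722 over the alternatives. The labels do not say that the replicate numbers pair the libraries. Correlations of deviations between a Vector and an OE_GPX3 library were 0.192, 0.0104 and 0.114 for the same number. For different numbers they were -0.151 to 0.0493. Whether the numbers mark a shared batch was not tested. Of all genes, 38 were called (14 higher, 24 lower): 115 by DESeq2 (74 higher, 41 lower), 68 with total counts alone (13 and 55), 129 without a filter, 231 with the replicate block (141 and 90), 49 with that block and G and C offsets, 4 with G and C offsets (2 and 2), 69 with length offsets (38 and 31), 4 and 4 by limma at a pseudocount of 1 and 0.1, and 1 by limma on any FPKM. Leaving out 1 library gave 1 to 657. Of the pathway list, 1 was called, against 5 by DESeq2, 5 with the replicate block, 2 with length offsets, 0 with G and C offsets, 0 with that block and those offsets, 0 in each of 3 limma settings and 0 to 6 without 1 library. The median log2 fold change of the collagen genes, 0.21, was 0.0072 to 0.28 without 1 library. The cause of these shifts was not tested.

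Directions changed in several genes. With total counts alone COL4A4 was at -0.011, COL4A1 at -0.015 and COL4A3 at -0.058; COL4A3 was at -0.025 with upper-quartile factors, -1.8e-06 without a filter, -0.00036 at a mean of at least 1 CPM and -0.0041 with the replicate block, and COL11A2 at 0.024 with length offsets. Without 1 library, the ranges were -0.11 to 0.24 for COL4A4, -0.057 to 0.12 for COL4A1, -0.083 to 0.12 for COL4A3, -0.64 to 0.33 for COL11A2, -0.086 to 0.24 for COL4A5, -0.035 to 0.55 for COL1A1, -0.0499 to 0.50 for COL5A3, -0.11 to 0.27 for COL15A1 and -0.22 to 0.0017 for COL5A2. COL17A1 was below 0 in all 18 alternatives. Many other genes kept their direction too. COL4A6, COL18A1, COL7A1, COL4A2, COL12A1, COL6A2, COL6A1, COL27A1, COL5A1 and COL26A1 were above 0 in all 18. COL8A1 and COL16A1 were above 0 in all 16 that included them. Depth limits genes under 1 FPKM, where 6 genes were tested.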

Other observations

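The RefSeq promoter windows of collagen genes that passed the count filter held a GC box (GGGCGG) in 17 of 24 windows (70.8%), those of the other collagen genes in 7 of 20 (35%), and all promoter windows in 45.0%. For a CCAAT box (CCAAT) the shares were 33.3%, 30% and 34.6%, and for a TATA box (TATAAA) 16.7%, 20% and 11.5%. The windows of 18 tested and 14 untested genes were available, several genes have more than 1 window, and median G and C content was 66.7% in the windows of tested genes, 58.5% in the others and 58.7% overall. No test was made of these shares.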
